A study of Mus musculus with 4 samples.

Results

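The 10 genes described here are the FOS family (Fos, Fosb, Fosl1, Fosl2), the JUN family (Jun, Junb, Jund) and the immediate early genes Egr1, Ier2 and Ier3. They were taken by symbol from a count table of 55487 mouse genes, each symbol matched 1 row, and all 10 were among the 15706 genes with enough reads to be tested. RNA came from tumours of AXT cells, a mouse osteosarcoma line known to derive from marrow stromal cells without Ink4a/Arf that were given an excess of c-MYC. The knockout group had 3 libraries of AXT lines with HIF-1alpha knocked out, called c11, c15 and c22 in the table. They were set against 1 library of Mock AXT cells, whose genotype is labelled WT. In both groups the cells were placed in matrigel in C57BL/6scid mice, which lack mature B and T cells but keep other host cells, and the tumours were taken after 1 day. The labels give no age of the mice and do not say how the lines were made, or whether each tumour came from its own mouse. They name the cell lines HIF-1alphaKO AXT1-1, HIF-1alphaKO AXT1-2 and HIF-1alphaKO AXT2, so that a pair of them shares a number whose meaning is not stated, and the sources used here do not tie these names to c11, c15 and c22. P-values therefore measure the spread between these libraries.

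Immediate early genes are transcribed within minutes of a signal, by proteins already present in the cell, and most of their RNAs are short-lived. Growth factors, stress and calcium reach them through MAP kinases, serum response factor with its partners, and CREB. FOS and JUN proteins pair through leucine zippers to form AP-1, which binds DNA and controls genes of proliferation, matrix breakdown and inflammation. In bone, AP-1 is known as a regulator of osteoblasts and osteoclasts, and c-Fos overexpression causes osteosarcoma in mice.

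Libraries held 12910058 counts in c11, 13193264 in c15, 13081007 in c22 and 12383719 in mock. Levels are in CPM, a gene's count per 1000000 counts of its library, after TMM scaling, a method that evens out differences in library composition. Hif1a, the targeted gene, was at 103, 98.9 and 22.7 CPM in libraries c11, c15 and c22, against 107 CPM in mock. A gene-level count does not show whether a working protein was made. Of the osteoblast lineage genes that fit the osteosarcoma label, the regulator gene Runx2 was detected (131, 139 and 118 CPM in libraries c11, c15 and c22, 244 CPM in mock), whereas Bglap, the osteocalcin gene, was at or under 1.45 CPM in every library. The collagen gene Col1a1 was at 1888, 1095 and 4774 CPM in the knockout libraries c11, c15 and c22, against 861 CPM in mock. It dominated the sum of the 8 lineage genes, which was 2326, 1975 and 5340 CPM, against 1816 CPM. Of the 8, 5 were below and 1 above mock in all 3 knockout libraries, beside 22.2% and 21.4% of all tested genes. Host cell transcripts were detected too. The 8 macrophage markers summed to 239, 329 and 429 CPM in libraries c11, c15 and c22, against 790 CPM in mock. In such bulk RNA, fewer cells of a type and less RNA per cell cannot be told apart.

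The promoter windows below are shown because the first 3 belong to genes that were lower than mock in every knockout library, while the fourth belongs to Jun, which was not. RefSeq windows on GRCm38.p6 were found for 7 of the 10 genes. None was found for Fosl1, Egr1 and Ier2, which were also lower than mock in every knockout library. The windows shown therefore cover only part of that group. Each window holds the 250 bases before the RefSeq start, read 5′ to 3′ on the gene's strand. Capitals mark the hypoxia response core, searched as ACGTG or GCGTG on both strands, so that a match on the other strand reads CACGT or CACGC.
Ier3, chr17:35821463-35821712, plus strand: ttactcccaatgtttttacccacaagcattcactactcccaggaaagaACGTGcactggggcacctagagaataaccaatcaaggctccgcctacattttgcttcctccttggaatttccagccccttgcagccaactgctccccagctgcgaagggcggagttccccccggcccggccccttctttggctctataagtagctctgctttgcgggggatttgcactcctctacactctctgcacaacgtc
Fos, chr12:85473640-85473889, plus strand: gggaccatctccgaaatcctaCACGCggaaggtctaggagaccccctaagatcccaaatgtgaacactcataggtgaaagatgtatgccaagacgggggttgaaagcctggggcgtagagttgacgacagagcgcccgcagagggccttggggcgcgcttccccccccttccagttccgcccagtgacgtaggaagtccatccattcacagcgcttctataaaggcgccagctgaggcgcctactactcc
Junb, chr8:84978749-84978998, minus strand: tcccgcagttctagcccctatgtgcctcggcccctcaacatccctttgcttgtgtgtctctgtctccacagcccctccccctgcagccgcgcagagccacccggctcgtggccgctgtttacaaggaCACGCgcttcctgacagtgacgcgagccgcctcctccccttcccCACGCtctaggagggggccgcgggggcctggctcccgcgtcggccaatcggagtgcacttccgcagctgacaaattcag
Jun, chr4:95052223-95052472, minus strand: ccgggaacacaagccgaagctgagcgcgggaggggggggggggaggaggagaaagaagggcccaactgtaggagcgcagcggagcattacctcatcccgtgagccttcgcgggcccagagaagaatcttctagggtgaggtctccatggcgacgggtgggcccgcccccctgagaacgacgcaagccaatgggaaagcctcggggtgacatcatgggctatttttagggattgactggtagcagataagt

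The core lay 202 to 198 bases before the start of Ier3, 229 to 225 before that of Fos, and at 123 to 119 and 79 to 75 before that of Junb. It was not found in the Jun and Fosb windows. The RefSeq starts of Jund and Fosl2 differ widely from those in the deposited table. The Jund window ends before the table's gene and the Fosl2 window lies inside it, so neither is placed at the table's start. In the Jund window the core lay 83 to 79 and 74 to 70 bases before the RefSeq start, although Jund was not lower in every knockout library. The Fosl2 window held no core. The core was found in 38.6% of all 32851 windows of this length, so a match is common. The AP-1 site (TGACTCA or TGAGTCA; 4.46% of windows), the cAMP response element (TGACGTCA; 1.55%) and the CArG box bound by serum response factor (1.47%) were in none of the 7 windows. Bases farther than 250 before the start were not searched, so sites there, CArG boxes included, would have been missed. Only exact matches were counted, so similar letters were passed over, such as tgacgtag in the Fos window and tgacatca in the Jun window. The absence of exact matches therefore does not show that these promoters lack such sites. The EGR site (GCGGGGGCG or GCGTGGGCG; 3.06%, the second form containing a hypoxia core) was in the windows of Fosb and Fosl2. A match is a description of letters, not of binding. The Ier3 and Fosb windows run slightly past the starts that the deposited table gives for those genes, and the Junb window ends slightly before its start.

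The 10 genes did not move as a block between knockout and mock tumours. Ier3 and Fosl1 were several-fold lower in every knockout library. Fos, Egr1, Junb and Ier2 were also below mock in all 3, but less so in c15. In c11 and c22 they were from 1.95-fold (Ier2 in c11) to 82.3-fold (Egr1 in c22) below mock, and in c15 from 1.03-fold (Ier2) to 1.49-fold (Egr1). Jun, Jund and Fosl2 were above mock in c11, slightly above in c15 and below in c22. Fosb was low everywhere and crossed mock. In edgeR's quasi-likelihood test over all 15706 genes, 0 of the 10 passed an adjusted p of 0.05, as did 0 (0%) of all genes in either direction. At an unadjusted p under 0.05, 2 of the 10, Ier3 and Fosl1, were lower, against a background of 1.93% of genes (303), and 0 were higher, against 1.31% (206). DESeq2 called the same 2 genes lower, where it called 0.42% of all genes lower (66) and 0.306% higher (48), and limma-voom called 0.

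Groups that did not overlap were counted next. All 3 knockout libraries lay below mock for 6 of the 10 genes, against 22.2% of all tested genes (3486), and above mock for 0 of the 10, against 21.4% (3363). The median log2 fold change (knockout minus mock) of the 10 was -0.77, beside 0.05 over all tested genes. These counts share the single mock library, which had no replicate.

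**Figure D1:**
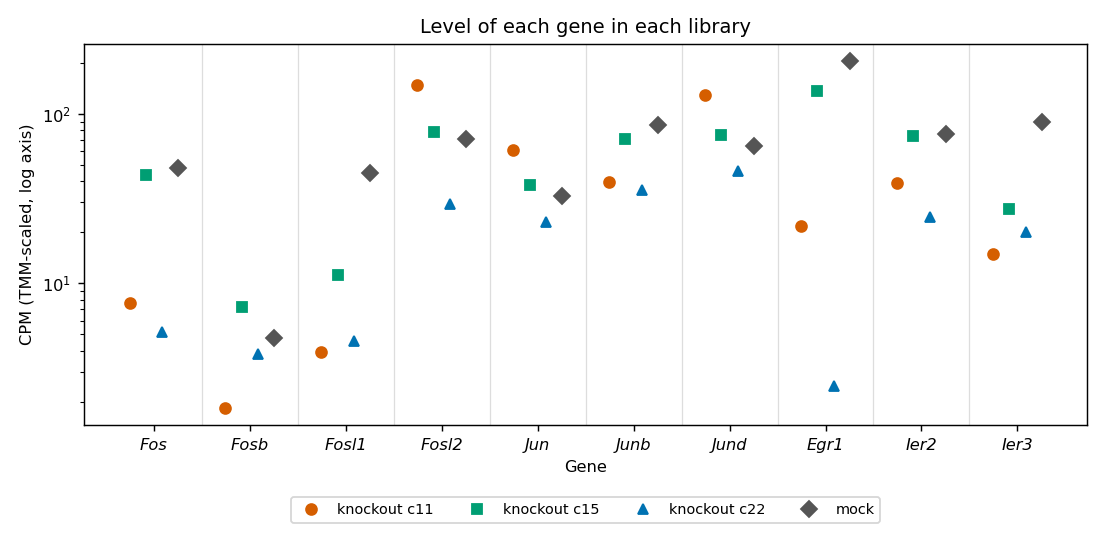
Level of each of the 10 genes in CPM on a log axis, 1 point per library, with the knockout libraries c11 (circles), c15 (squares) and c22 (triangles) left of mock (diamonds). Mock is the highest point for 6 genes, and Egr1 has the widest spread, from 2.48 CPM in c22 to 205 CPM in mock.

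Among the FOS genes, Fosl1 encodes FRA-1, an AP-1 subunit that lacks the strong activation domain of c-FOS and is linked to invasion in many tumours. Fosl1 (ENSMUSG00000024912, chromosome 19, 5447547 to 5455946, GRCm38, plus strand) was at 3.90, 11.2 and 4.58 CPM in libraries c11, c15 and c22, against 44.9 CPM in mock. The groups did not overlap, and c15 was the highest of the knockout libraries. The knockout mean was 6.58 ± 4.06 CPM (SD, n = 3), 6.83-fold below mock, with a log2 fold change of -2.77 (SE 0.64, edgeR unadjusted p = 0.00587, adjusted p = 0.785; DESeq2 adjusted p = 0.0372). The end of Fosl1 is overlapped on the other strand by Ccdc85b, a protein-coding gene at 29.1, 41.6 and 32.1 CPM in libraries c11, c15 and c22, against 85.8 CPM in mock. The sources used here do not say whether reads of the overlap were kept apart, so the level of Fosl1 is uncertain.

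Fos itself, the founding gene of the family, separated the knockout libraries. Fos (ENSMUSG00000021250, chromosome 12, 85473890 to 85477273, plus strand) was at 7.65, 43.6 and 5.12 CPM in libraries c11, c15 and c22, against 48.2 CPM in mock. Library c15 was near mock, with a log2 ratio of -0.15 and a 95% counting interval of -0.31 to 0.02, while c11 was 6.31-fold and c22 9.41-fold below mock. Intervals on ratios of single libraries cover counting error only. The knockout mean was 18.8 ± 21.5 CPM, so the SD exceeded the mean, and the fitted log2 difference was -1.36 (SE 1.14, adjusted p = 1 in edgeR). Without c15 it was -2.92 (SE 0.43), with 2 knockout libraries left and an edgeR adjusted p of 0.138. The fitted difference was smaller, -0.98 without c11 and -0.91 without c22.

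Fosl2 and Fosb differed from Fos. Fosl2 encodes FRA-2, the other FOS protein without the strong activation domain, which acts in osteoblasts and chondrocytes. Fosl2 (ENSMUSG00000029135, chromosome 5, 32135801 to 32157842, plus strand) was at 148, 78.7 and 29.4 CPM in libraries c11, c15 and c22, against 71.2 CPM in mock. The groups overlapped, with c11 2.08-fold above mock and c22 2.43-fold below it, and the log2 fold change of 0.26 (SE 0.84, edgeR adjusted p = 1) became -0.40 without c11. Fosb (ENSMUSG00000003545, chromosome 7, 19302696 to 19310051, minus strand), an early-response gene whose shortened product accumulates after repeated stimulation of neurons, had 24, 95 and 49 counts in c11, c15 and c22, against 59 counts in mock. At 1.84 to 7.22 CPM it was the lowest of the 10 in c11, c15 and mock, and its fitted log2 difference was -0.15 (SE 0.86, adjusted p = 1 in edgeR), or 0.21 without c11.

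The JUN genes fell into a pair and a single gene. Jun, whose protein c-JUN is the main partner of FOS proteins, and Jund, whose product is less inducible and often restrains growth, had nearly the same profile. Jun (ENSMUSG00000052684, chromosome 4, 95049034 to 95052222, minus strand) was at 61.2, 38.2 and 23.0 CPM in libraries c11, c15 and c22, against 32.7 CPM in mock. Jund (ENSMUSG00000071076, chromosome 8, 70698949 to 70700616, plus strand) was at 129, 75.2 and 46.0 CPM in the same libraries, against 64.7 CPM in mock. For both genes c11 was highest, c15 a little above mock and c22 lowest, so the groups overlapped. Log2 fold changes were 0.32 (SE 0.59) for Jun and 0.37 (SE 0.60) for Jund (edgeR adjusted p = 1 for both), and each was -0.09 without c11.

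Both genes have an annotated antisense partner in the table. Gm11175, inside Jund, had 65.8 to 67.8% as many counts as Jund in every library, and Junos, which overlaps the start of Jun, had 13.6 to 17.6% as many as Jun. The kit was directional, but the sources used here do not give the strand setting of the counting, so the levels of Jund and Jun are uncertain to that extent.

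Junb, whose product opposes c-JUN on many promoters and favours differentiation, was below mock in every knockout library. Junb (ENSMUSG00000052837, chromosome 8, 84976910 to 84978718, minus strand) was at 39.8, 71.1 and 35.6 CPM in libraries c11, c15 and c22, against 86.0 CPM in mock. The groups did not overlap, and c15 was the closest to mock, with a log2 ratio of -0.27 (95% counting interval -0.40 to -0.15). The fitted log2 difference was -0.82 (SE 0.46, adjusted p = 1 in edgeR). It was -1.19 (SE 0.29) without c15, -0.69 without c11 and -0.63 without c22.

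**Figure D2:**
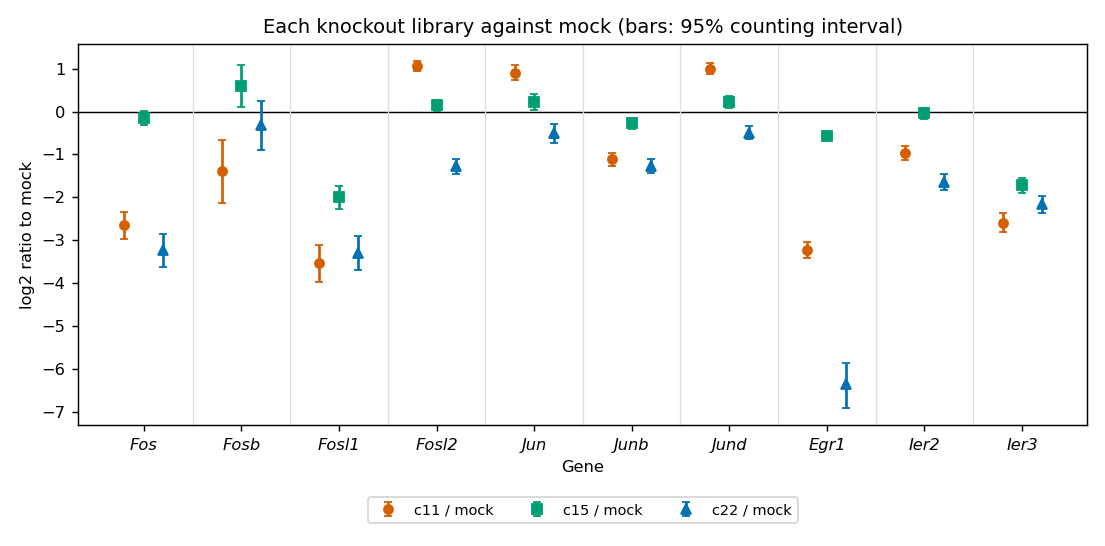
Log2 ratio of each knockout library to mock for the 10 genes, with exact 95% counting intervals as bars and the zero line marking the mock level. All c22 points lie below zero, c11 has 3 genes above it, and c15 lies between -0.58 (Egr1) and 0.60 (Fosb) except for Fosl1 and Ier3.

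Egr1 encodes a zinc finger factor that is induced by the same MAP kinase route as Fos. Egr1 (ENSMUSG00000038418, chromosome 18, 34859823 to 34864984, plus strand) was at 21.9, 137 and 2.48 CPM in libraries c11, c15 and c22, against 205 CPM in mock. All knockout libraries were below mock, from 1.49-fold in c15 to 9.36-fold in c11 and 82.3-fold in c22, where 32 reads were counted. The fitted log2 difference was -1.93 (SE 1.62, adjusted p = 1 in edgeR). It was -4.08 (SE 1.45) without c15, -1.55 without c11 and -1.36 without c22. The log2 range of Egr1 among the knockout libraries was 5.53, which 0.293% of the 9909 genes with a mean of at least 10 CPM reached, beside a median range of 0.59. For Fos that range was 2.97, reached by 1.77% of those genes.

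Ier2, an intronless early-response gene linked to cell motility, had a profile close to that of Junb. Ier2 (ENSMUSG00000053560, chromosome 8, 84661331 to 84662854, minus strand) was at 38.8, 74.0 and 24.5 CPM in libraries c11, c15 and c22, against 75.9 CPM in mock. Library c15 did not differ from mock beyond counting error (log2 ratio -0.04, interval -0.17 to 0.09), while c11 was 1.95-fold and c22 3.10-fold below. The fitted log2 difference was -0.73 (SE 0.61, adjusted p = 1 in edgeR), and it was -1.27 without c15 and -0.43 without c22.

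Ier3, also called IEX-1, encodes a small stress-induced protein that modulates apoptosis and ERK signalling. Ier3 (ENSMUSG00000003541, chromosome 17, 35821684 to 35822923, plus strand) had 195, 360 and 260 counts in c11, c15 and c22, against 1116 counts in mock. These were 14.9, 27.4 and 20.2 CPM, against 90.0 CPM, and the groups did not overlap. The log2 ratios to mock were -2.59, -1.72 and -2.16. Ier3 had the smallest unadjusted p of the 10 (0.00230; log2 fold change -2.11, SE 0.39, edgeR adjusted p = 0.548). The call depended on the tool and filter: DESeq2 gave an adjusted p of 0.00785, limma-voom 0.474, and edgeR without a filter on low counts 0.0233. Its log2 range among the knockout libraries, 0.85, was the smallest of the 10. It was still above the median range of 0.59, and 28.7% of the 9909 genes with a mean of at least 10 CPM reached it.

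Per library, the 10 genes had a median log2 ratio to mock of -1.24 in c11, -0.09 in c15 and -1.46 in c22, beside medians of 0.01, -0.01 and -0.01 over all tested genes. In c22 all 10 were below mock and 9 had a counting interval below 0, as did 32.8% of all tested genes. In c11 there were 7 below and 3 above mock, all beyond counting error, where 30.5% of all tested genes had an interval below 0 and 31.5% one above it. In c15 there were 6 below and 4 above, with 4 intervals below 0 and 4 above, beside 27.5% and 27.4% of all tested genes. Of all tested genes, 49.4, 50.7 and 50.6% were below mock in c11, c15 and c22. Set against c15, c22 was lower for all 10 genes beyond counting error, by log2 ratios of -0.44 (Ier3) to -5.79 (Egr1). The same held for 33.1% of all tested genes. Differences between c11, c15 and c22 had no replicate and were not tested.

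Levels of different genes are compared as CPM per kilobase of annotated exon. In mock, Ier3 was the most abundant at 79.6 CPM per kb, before Ier2 at 49.9, Egr1 at 45.6, Jund at 38.8 and Junb at 37.4, and Fosb was the lowest at 0.76. By the knockout mean the order began with Jund at 50.1 ± 25.3 CPM per kb, Ier2 at 30.1 ± 16.7 and Junb at 21.2 ± 8.44 (SD, n = 3). Ier3 at 18.4 ± 5.52, Jun at 12.8 ± 6.03, Egr1 at 12.0 ± 16.2, Fosl2 at 8.82 ± 6.16, Fos at 7.99 ± 9.15, Fosl1 at 3.23 ± 2.00 and Fosb at 0.69 ± 0.44 followed. Of the 9 gaps between neighbours in that order, 8 were smaller than the larger SD of the pair, and only the gap between Fosl1 and Fosb exceeded it.

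The makeup of the FOS family differed between libraries. Summed over its 4 genes it was at 20.8, 33.4 and 8.07 CPM per kb in c11, c15 and c22, against 50.7 CPM per kb in mock. Fosl2 took 73.7, 24.4 and 37.6% of that sum in c11, c15 and c22, against 14.5% in mock. Fosl1 took 9.24, 16.6 and 27.9%, against 43.6%. Fos took 15.7, 55.6 and 27.0%, against 40.4%. The leading FOS gene was thus Fosl2 in c11 and c22, Fos in c15 and Fosl1 in mock, where Fos was close behind.

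The JUN family sum was at 114, 88.0 and 50.3 CPM per kb in c11, c15 and c22, against 86.4 CPM per kb in mock, and Jund led in every library. Junb took 15.2, 35.1 and 30.8% of it in c11, c15 and c22, against 43.3% in mock. Jun took 16.8, 13.6 and 14.3%, against 11.9%. Overlapping transcripts touch the Jund, Jun and Fosl1 parts of these sums, as described above.

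**Figure D3:**
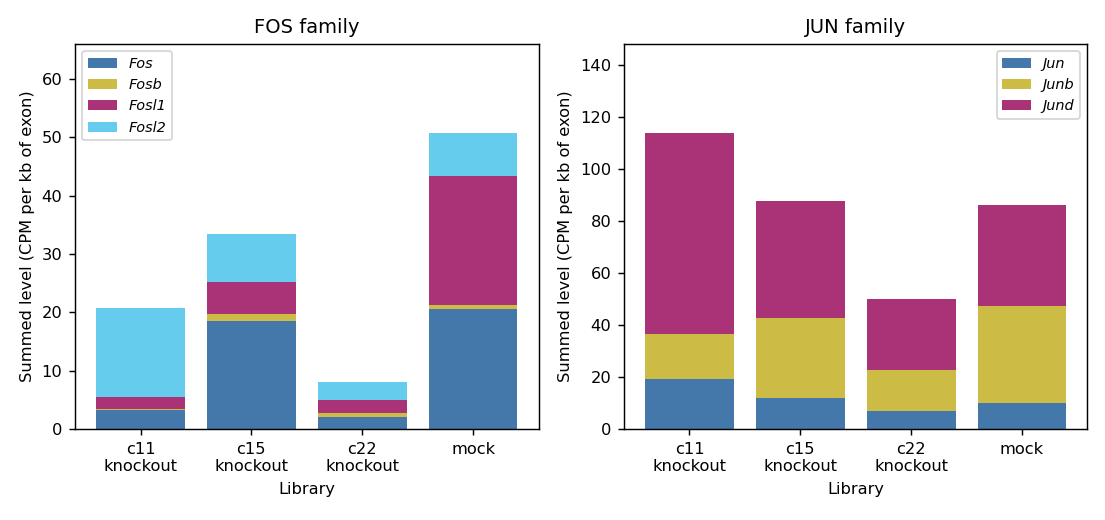
Summed level of the FOS family (left) and JUN family (right) in CPM per kilobase of exon, stacked by gene, for the knockout libraries c11, c15 and c22 and for mock. The FOS sum is lower than in mock in each knockout library, and the JUN sum is not.

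Other genes with like profiles were sought over the 4 libraries among 9193 named genes with a mean of at least 10 CPM, by the Euclidean distance between mean-centred log2(CPM + 0.5) values. Nearest to Fos were Spry1, a feedback inhibitor of receptor tyrosine kinase signalling (distance 0.51), the glutaminase gene Gls2 (0.58) and Sumo2 (0.60), where the median gene was at 2.84. Spry1 was at 14.2, 49.99 and 9.16 CPM in libraries c11, c15 and c22, against 70.2 CPM in mock. Nearest to Jun were Jund (0.09), the netrin receptor gene Unc5b (0.13) and Phf20l1 (0.18), with a median of 1.13. Nearest to Ier3 were Pgk1, a glycolytic kinase gene and textbook HIF-1 target (0.29), Spata13 (0.37) and Ldha, the lactate dehydrogenase gene (0.38), with a median of 2.03. Pgk1 was at 476, 682 and 513 CPM in libraries c11, c15 and c22, against 2205 CPM in mock. With 4 libraries, many genes can share a profile, and the distances are descriptions.

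**Figure D4:**
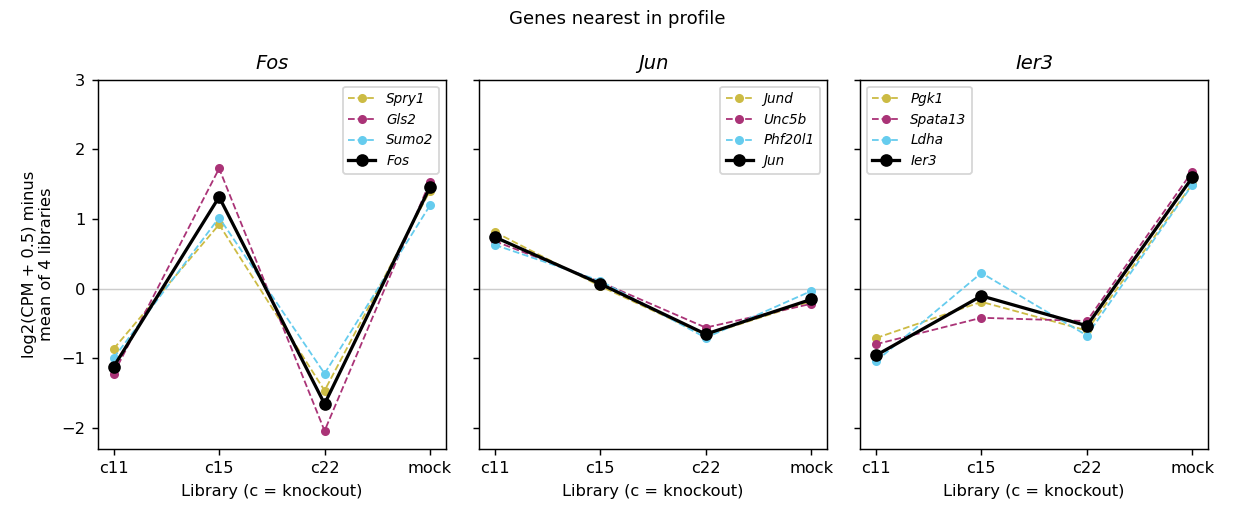
Log2(CPM + 0.5) minus its mean over the 4 libraries for Fos, Jun and Ier3 (black) and the 3 genes nearest to each (dashed), with knockout libraries left of mock. Fos is high in c15 and mock, Jun is high in c11, and Ier3 is high in mock.

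Beyond the 10 genes, other immediate early genes lay on both sides of mock. Of 35 tested, 0 passed edgeR's adjusted p, 2 higher and 3 lower had an unadjusted p under 0.05, and DESeq2 called 2 higher and 0 lower. Over all tested genes the unadjusted shares were 1.31% higher and 1.93% lower, and the DESeq2 shares 0.306% and 0.42%. Of the 35, 13 were below and 7 above mock in all 3 knockout libraries, beside 22.2% and 21.4% of all tested genes. The median log2 fold change of the 35 was -0.18. Their library medians of the log2 ratio to mock came to -0.50 (c11), 0.02 (c15) and -0.40 (c22). Egr3 and Egr2, relatives of Egr1, were the lowest. Egr3 was at 1.07, 5.01 and 0.70 CPM in libraries c11, c15 and c22, against 17.3 CPM in mock (log2 fold change -2.93, SE 1.04, edgeR adjusted p = 1). Egr2 was at 2.37, 5.93 and 1.55 CPM, against 13.7 CPM. As with Egr1, c15 was the highest knockout library for both.

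The 2 genes that DESeq2 called higher were Plk2 and Atf3. Plk2, a stress-responsive polo-like kinase gene, was at 47.4, 28.8 and 14.99 CPM in libraries c11, c15 and c22, against 4.11 CPM in mock (log2 fold change 2.88, SE 0.81, DESeq2 adjusted p = 0.0161). Atf3, whose product pairs with JUN proteins and belongs to the integrated stress response, was at 36.6, 33.7 and 26.3 CPM, against 6.45 CPM (log2 fold change 2.32, SE 0.44, edgeR adjusted p = 0.576, DESeq2 adjusted p = 9.64e-04). Among 14 other dimer partners of AP-1, the median log2 fold change was 0.16 and 0 passed edgeR's adjusted p. At an unadjusted p under 0.05, 4 were higher and 0 lower, beside 1.31% and 1.93% of all tested genes. DESeq2 called 1 higher, Atf3, beside 0.306% of all tested genes. The repressor gene Jdp2 was at 68.0, 42.2 and 97.4 CPM in libraries c11, c15 and c22, against 24.4 CPM in mock. The small MAF gene Maff was at 4.43, 8.51 and 9.47 CPM, against 15.6 CPM.

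Upstream, none of 13 serum response, CREB and related factors, of 16 MAP kinase cascade genes or of 11 MAP kinase phosphatases passed edgeR or DESeq2, with median log2 fold changes of 0.19, 0.09 and 0.01. At an unadjusted p under 0.05 edgeR had 0 of the factors, 0 of the cascade genes and 2 of the phosphatases, Dusp6 (lower) and Dusp8 (higher). The shares of all tested genes were 1.93% lower and 1.31% higher. Mef2c was the lowest of the factors, at 153, 186 and 94.7 CPM in libraries c11, c15 and c22, against 276 CPM in mock. Map2k1, the gene of the kinase MEK1, was at 56.9, 73.3 and 69.0 CPM, against 99.1 CPM. Dusp6, a phosphatase gene induced by ERK that inactivates it, was at 6.50, 12.8 and 6.45 CPM, against 23.3 CPM, while Dusp8, whose product acts on JNK and p38, was at 15.1, 10.8 and 11.5 CPM, against 4.52 CPM. Of 10 ERK pathway ligands and receptors tested, 0 passed either tool and 0 had an unadjusted p under 0.05 in edgeR. Egfr, the epidermal growth factor receptor gene, was at 4.36, 19.6 and 0.78 CPM in libraries c11, c15 and c22, against 13.9 CPM in mock. Pdgfrb, a platelet-derived growth factor receptor gene with the second highest log2 fold change of that list (1.68, SE 0.91), was at 210, 47.3 and 199 CPM, against 47.4 CPM. The ligand gene Pdgfb, the highest (1.72), was at 0.08, 2.66 and 1.32 CPM, against 0.40 CPM.

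Textbook AP-1 targets lay on both sides of mock. Of 18 tested, 0 passed edgeR or DESeq2. In edgeR 2 were lower at an unadjusted p under 0.05, beside 1.93% of all tested genes. In all 3 knockout libraries 5 were below and 2 above mock, beside 22.2% and 21.4% of all tested genes. The median log2 fold change of the 18 was -0.22. Ccl2, a monocyte chemoattractant gene, was at 22.5, 36.7 and 34.8 CPM in libraries c11, c15 and c22, against 61.0 CPM in mock. The gelatinase gene Mmp9 was at 1.22, 3.19 and 3.65 CPM, against 5.16 CPM. Hmga2, a chromatin architecture gene, was at 28.2, 59.0 and 11.2 CPM, against 22.3 CPM. Il6 had 4, 6 and 5 counts in the knockout libraries and 2 in mock and was not tested.

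**Figure D5:**
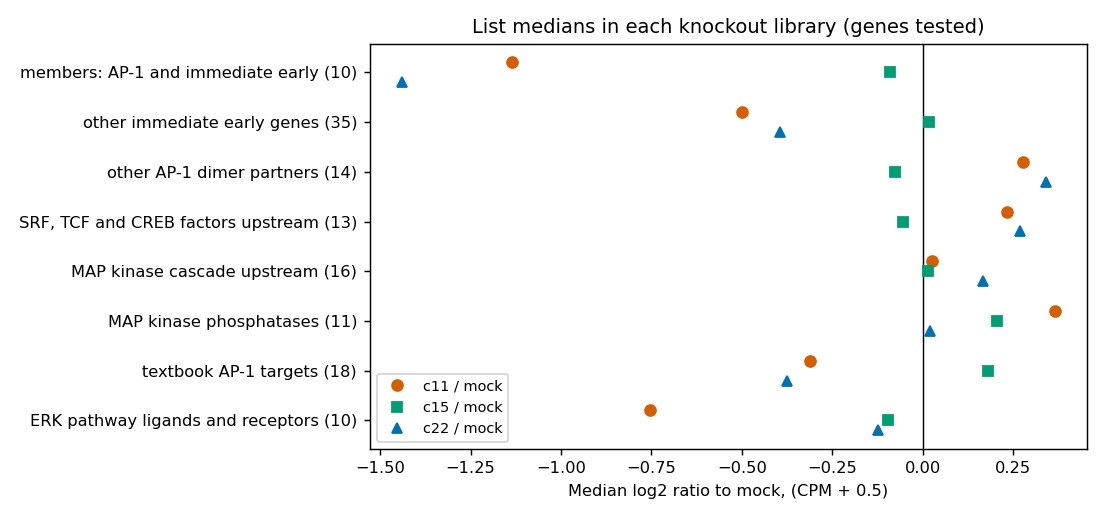
Median log2 ratio to mock, with 0.5 CPM added, of the 10 genes (top row) and of 7 related lists in c11, c15 and c22, with the number of genes tested in brackets. The 10 genes have the lowest medians in c11 and c22 and a median near 0 in c15.

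Host cell markers and HIF targets were measured beside these genes, and 0 host markers passed edgeR, DESeq2 or limma-voom. Markers of skeletal muscle summed to 6.12, 1.22 and 21.04 CPM in libraries c11, c15 and c22, against 99.9 CPM in mock (7 of 7 below mock in every knockout library), and erythroid markers to 1.61, 4.25 and 41.7 CPM, against 116 CPM (5 of 5). Of 8 macrophage markers, 7 were below mock in every knockout library. Among all tested genes that share was 22.2%. For the muscle, erythroid and macrophage sums, c22 was the knockout library closest to mock. Among the macrophage markers, Mrc1 and Csf1r were closest to mock in c15 and the rest in c22. Host fibroblast markers summed to 25.4, 93.5 and 99.4 CPM, against 110 CPM. Among them Dcn (6.27, 30.9 and 12.1 CPM, against 45.0 CPM) and Pi16 (4.21, 29.4 and 11.7 CPM, against 25.6 CPM) were highest in c15 and mock, as Fos was, and Dpt was at 5.43, 19.1 and 8.85 CPM, against 19.8 CPM. The other 2 tested differed: Pdgfra, at 5.35, 6.99 and 64.8 CPM, against 15.2 CPM, was highest in c22, and Lum, at 3.98, 7.14 and 1.94 CPM, against 3.87 CPM, was highest in c15 and lowest in c22. Neutrophil markers summed to 4.66, 14.8 and 17.5 CPM, against 10.4 CPM, with Ly6g and Ngp at 0 counts in every library. Endothelial markers summed to 1.15, 2.36 and 1.40 CPM, against 4.36 CPM, so that c15 was closest to mock. Epidermal markers summed to at most 3.80 CPM in any library. The part of these cells in the levels of the 10 genes was not tested. Of 10 HIF targets, 9 were below mock in every knockout library, c15 included, beside 22.2% of all tested genes. The median log2 ratios of the 10 to mock were -2.56 for c11, -2.65 for c15 and -2.40 for c22.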

How the data were processed

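The authors' deposited table gives raw read counts for Ensembl genes in 4 libraries, and per the labels' protocols the libraries were directional and made from poly(A) RNA. The submitters' processing notes name GRCm38, HISAT2 2.1.0 and featureCounts 1.6.3, besides Trimmomatic 0.38, FastQC 0.11.7 and SAMtools 1.9, and the sources used here give no settings. Columns c11, c15 and c22 were used as 3 libraries of 1 group. Library pairs differed beyond sampling noise (chi-square per gene 45.0 to 84.1).

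The filter filterByExpr kept 15706 genes with 99.9% of counts. These were scaled by TMM, then tested with the 2-sided robust quasi-likelihood test of edgeR 4.0.16 (R 4.3.3), with Benjamini-Hochberg adjustment over all tested genes and a threshold of 0.05. The mock library was assumed to vary like the knockout libraries, leaving 2 residual degrees of freedom. DESeq2 1.42.0, limma-voom (limma 3.58.1), other scalings, other filters and leaving out each knockout library were alternatives. SEs came from the F statistic. Single-library ratios have exact conditional 95% intervals (counting error only), and a count of 0 allowed 0.228 to 0.242 CPM. Exon lengths came from GENCODE M21, and promoters from RefSeq. Lists with 4 older symbols were matched through RefSeq synonyms.

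On simulated data for this comparison (15267 genes), 46 of 100 genes with a log2 change of 2 and 93 of 100 with 4 were recovered, with 10 false calls. The simulated spread followed the fitted trend alone, without differences between genes around it, and only genes above a minimum mean level were changed. The simulation therefore cannot tell how many changes the real fit missed. There Ankrd37, with a log2 fold change of -5.64, had an edgeR adjusted p of 0.493.

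The members, lists and tests were chosen with earlier results of these data known. All 10 members are named. From each list, among genes with a mean of at least 1 CPM, named genes come from the 2 highest and 2 lowest log2 fold changes, and the 3 nearest genes were taken for Fos, Jun and Ier3. Il6, the overlapping genes and the marker genes were named after their values were seen.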

Additional observations from a re-analysis of the deposited data

How the results depend on the processing

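No paired analysis was possible because the single mock library shares at most 1 replicate number with the knockout group and the knockout columns carry none. Under edgeR with RLE scaling, upper quartile scaling or a minimum mean of 1 CPM, and under limma-voom, 0 genes passed in either direction. DESeq2 called 48 genes higher and 66 lower, and 2 of the 10 genes lower (Fosl1 and Ier3). EdgeR without a filter called 12 higher and 57 lower, and 1 of the 10 lower (Ier3); the cause was not tested. Leaving out each knockout library in turn gave 0 calls, with 404 (without c11) to 1317 (without c15) genes at an unadjusted p under 0.05, against 509 with all libraries. The median log2 fold change of the 10 genes ranged from -1.23 without c15 to -0.53 without c22. Of 90 values of single genes under the alternatives, 82 kept their direction and side of the threshold, 3 passed it in the same direction and 5 changed direction. The 5 were Fosl2 with limma-voom (-0.025) and 4 genes without c11. Over the libraries left out, Fosb ranged from -0.75 (without c15) to 0.21 (without c11), and the others from their value without c11 to that without c22: Fosl2 from -0.40 to 0.67, Jun from -0.091 to 0.61 and Jund from -0.090 to 0.66. The lowest counts behind the values were 24 for Fosb and 51 for Fosl1 in c11, and 32 for Egr1, 49 for Fosb, 59 for Fosl1 and 66 for Fos in c22, and 59 for Fosb in mock.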
